A study of Mus musculus with 4 samples.

Results

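Megakaryocyte-primed LSK cells of the mouse fetal liver are described here: cells of the stem and early progenitor gate that already held transcripts of the platelet lineage. They were chosen by 4 transcripts. A cell was a member when it held at least 2 unique molecular identifiers (UMIs, 1 per captured transcript) of Pf4 and when Pf4, Treml1, Cavin2 and Itgb3 together reached at least 2 per 10000 gene UMIs. By this rule 50 of 8094 cells were members, 29 in the KO library and 21 in the WT library. The levels of the 4 genes chose the cells, so they are given only as a description.

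The LSK gate takes cells without lineage markers that are positive for Sca1 and c-Kit, and it holds haematopoietic stem cells and multipotent progenitors. The KO embryos carried Vav-Cre and floxed Bclaf1 alleles (Vav-Cre:Bclaf1f/f), and the WT embryos carried the floxed alleles without Cre (Bclaf1f/f). Vav-Cre is a recombinase active across blood cells, so Cre itself was present in KO cells only, and Bclaf1 encodes a nuclear factor with roles in transcription and RNA splicing. Livers of 10 embryos at E17.5 were pooled per genotype, 20000 cells were sorted and 10000 loaded, and RNA and antibody tags were read from the same cells (CITE-seq), which gave 4 samples in 4 groups. There was 1 library per genotype, so no p-value is given. The 95% intervals below cover counting error only, not the spread between cells, embryos or captures, and genotype and library cannot be told apart.

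Megakaryocytes are the large polyploid cells that shed platelets. They mature under transcription factors that include Gata1, Fli1, Runx1 and Nfe2. In mouse marrow and fetal liver some cells with stem cell surface markers already carry platelet transcripts such as Pf4, Itga2b and Vwf. Platelet genes encode the adhesion receptors that hold a platelet to a damaged vessel wall, the contents of its granules, the relay that activates its integrins, and the tubulin and actin machinery that builds it.

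The finding on surface phenotype below rests on 2 antibody tags, whose barcodes are therefore shown. CD150 and CD48 are the SLAM family receptors used to separate stem cells from progenitors. Each barcode is the designed sequence of 15 bases, 5′ to 3′, that was counted as that antibody.
CD150: caacgcctagaaacc
CD48: agaaccgccgtagtt

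The genes on which the description turns are high together in these cells, so stretches of 120 bases directly before their start sites are shown for 4 of them, 1 rule gene (Pf4) and 3 genes that the rule did not use. Sequences are from RefSeq, assembly GRCm38.p6, given 5′ to 3′ on the gene's own strand. Capitals mark 2 short motifs searched on both strands, AGATAA (bound by GATA factors) and GGAAGT (bound by ETS factors such as Fli1), which do not overlap each other in these stretches.
Gp5, chr16:30310782-30310901, minus strand: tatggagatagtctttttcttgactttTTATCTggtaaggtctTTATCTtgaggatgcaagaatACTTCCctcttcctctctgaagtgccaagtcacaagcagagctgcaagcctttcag
Itga2b, chr11:102469884-102470003, minus strand: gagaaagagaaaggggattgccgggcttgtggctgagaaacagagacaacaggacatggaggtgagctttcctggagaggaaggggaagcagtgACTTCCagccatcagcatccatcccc
F2rl2, chr13:95696800-95696919, plus strand: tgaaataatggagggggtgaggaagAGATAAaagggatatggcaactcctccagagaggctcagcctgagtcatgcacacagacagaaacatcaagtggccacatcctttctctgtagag
Pf4, chr5:90772315-90772434, plus strand: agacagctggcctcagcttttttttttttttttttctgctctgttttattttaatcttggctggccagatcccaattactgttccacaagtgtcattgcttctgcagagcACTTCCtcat

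The 4 stretches were picked because each holds a match. The 4 rule genes and the 12 genes highest in the cells outside the rule were looked up, and 14 of the 16 matched, all but Thbs1 and Itgb3. Of their 15 promoters, 3 (20%) held AGATAA and 4 (26.7%) held GGAAGT within 250 bases before the start, and 1 (6.67%, Gp5) held both. Of all 32851 promoters in the table, 9.99% held AGATAA, 19.7% held GGAAGT and 1.76% held both. A match is a run of letters and says nothing of binding.

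All 50 cells lay above the depth minimum of 8000 gene UMIs, but the libraries differed in depth. KO members held 16119 to 147812 gene UMIs with a median of 48281, and WT members held 8287 to 89191 with a median of 27849. The other LSK cells had medians of 33390 UMIs in KO and 22679 in WT. The member sums behind the gene levels were 1398548 UMIs in KO and 664697 in WT. Mitochondrial transcripts made up a median of 3.76% of UMIs in KO members and 3.6% in WT members. The 2 libraries shared 5 cell barcodes, and no member was among them. No doublet caller was run, so droplets with 2 cells remained in the data.

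Pf4 (platelet factor 4, a chemokine stored in alpha granules; GRCm38.p6 chromosome 5, 90772435 to 90773383) ranged widely among the cells that it selected. It held 2 to 717 UMIs per KO member with a median of 6, and 2 to 202 UMIs per WT member with a median of 4. The 4 rule genes together reached 2.05 to 141 per 10000 UMIs in KO members with a median of 3.51, and 2.26 to 45.7 in WT members with a median of 3.55. Both libraries thus held many cells close to the threshold and a few far above it, with nearly the same median.

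Near the threshold the rule separated close neighbours. The lowest levels inside were 2.05, 2.06 and 2.26 per 10000 in KO and 2.26, 2.38 and 2.41 in WT. Among cells with at least 2 Pf4 UMIs, the highest levels outside were 1.96, 1.83 and 1.80 in KO and 1.99, 1.99 and 1.98 in WT. A further 11 KO and 24 WT cells reached the level of 2 per 10000 but held fewer than 2 Pf4 UMIs. Cells with at least 2 Pf4 UMIs numbered 89 in KO, of which 60 missed the level, and 128 in WT, of which 107 missed it. The level depends on depth: a cell of 8000 UMIs needed 2 rule UMIs, a cell at the WT member median 6 and a cell at the KO member median 10.

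The other 3 rule genes did not select a cell without Pf4. Treml1 (TLT-1, a receptor of platelet granule membranes) was detected in 22 of 29 KO members and 16 of 21 WT members. Cavin2 (a coat protein of caveolae, small membrane pits) was detected in 19 KO and 12 WT members. Itgb3 (integrin beta 3, the partner of CD41 in the fibrinogen receptor) was detected in 22 KO and 13 WT members. In 5 KO and 3 WT members Pf4 was the only rule gene with a UMI; this split was made after the values were seen.

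**Figure D1:**
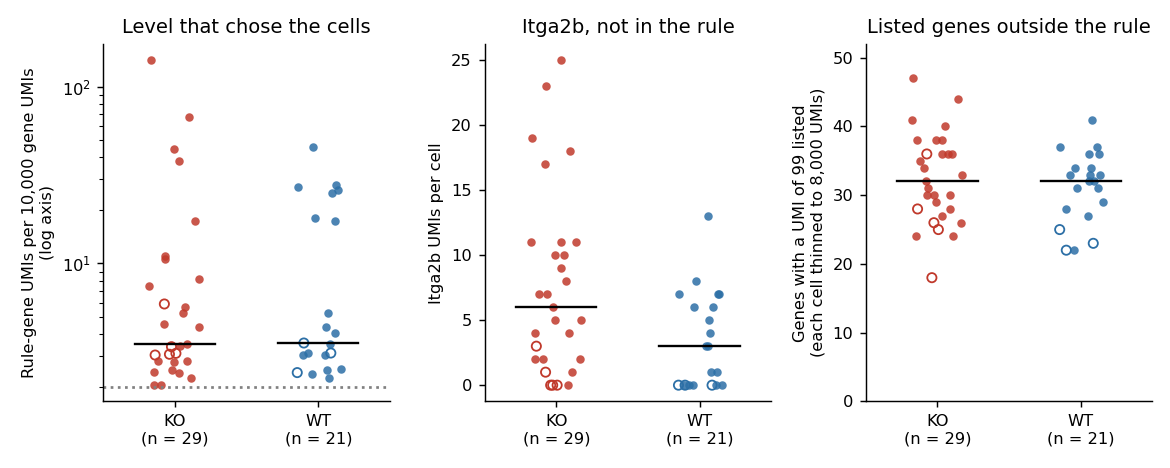
The 29 KO (left in each panel) and 21 WT members, 1 circle per cell, with black lines at the medians and open circles for cells with Pf4 alone. From left to right are the 4 rule genes per 10000 gene UMIs on a log axis with the threshold of 2 dotted, Itga2b UMIs per cell, and the number of 99 listed platelet and megakaryocyte genes with a UMI after thinning to 8000 UMIs. Rule levels span 2.05 to 141 in KO and 2.26 to 45.7 in WT, and the thinned medians are equal at 32 genes.

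Itga2b, which encodes CD41 (integrin alpha IIb, the classical surface mark of megakaryocytes; chromosome 11, 102453297 to 102469883), was not part of the rule and served as the check of the name. It was detected in 25 of 29 KO members (86.2%, 68.3 to 96.1) and in 13 of 21 WT members (61.9%, 38.4 to 81.9). In the other LSK cells it was detected in 15.4% in KO and 9.47% in WT. Erythroid-primed LSK cells, a related lineage that should lack it as it matures, showed 21.3% of 207 cells in KO and 19.4% of 180 in WT, at higher median depths of 73936 and 55246 UMIs. With every cell thinned to 8000 UMIs, the shares were 65.5% of KO and 42.9% of WT members, 4.20% and 3.71% of the other KO and WT cells, and 3.38% and 3.89% of erythroid-primed KO and WT cells. The members thus stood above both groups at equal depth in both libraries. The nearest group by surface phenotype, CD150-high CD48-high cells outside the rule, came closer, at 53.7% of 108 KO cells and 49.5% of 206 WT cells with median depths of 37186 and 24910 UMIs. Against these the WT members' interval overlapped, and the thinned shares of that group were 18.5% in KO and 24.3% in WT.

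Itga2b UMIs per cell ranged from 0 to 25 with a median of 6 in KO members and from 0 to 13 with a median of 3 in WT members. Scaled to 1000000 gene UMIs (CPM), the sums came to 158 CPM in KO members and 107 CPM in WT members, against 6.73 CPM in the other KO cells and 5.40 CPM in the other WT cells. The log2 ratio of members over other cells was 4.55 (4.33 to 4.77) in KO and 4.30 (3.93 to 4.66) in WT. Over the summed members the data therefore carried the label in both libraries, with 4 KO and 8 WT members that had no Itga2b UMI. The 3 WT members with Pf4 as the only rule gene held no UMI of Itga2b, Gp1bb, Vwf, F2rl2, Thbs1 or Gata1. The 5 such KO members held 4 Itga2b UMIs in 2 cells and no UMI of the rest of these genes. Those genes do not carry the label for these cells.

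Of 99 further genes in 6 lists of platelet and megakaryocyte genes, all outside the rule, KO members each showed 30 to 83 genes with a UMI (median 62) and WT members 25 to 77 (median 53). After thinning to 8000 UMIs the counts were 18 to 47 in KO and 22 to 41 in WT, with a median of 32 genes in both. Some UMI was found in the summed KO members for 93 of the 99 genes and in the summed WT members for 90.

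Surface phenotype was read from the antibody tags, which the rule did not use. The members were rich in CD150 and kept CD48, and most lay in a corner of the LSK gate that few other cells occupied. CD150 made up 0.577% to 31.6% of the 6 tags in KO members with a median of 7.42%, and 0.539% to 43.4% in WT members with a median of 10.9%. Its median in the other LSK cells was 0.411% in KO and 0.318% in WT, which gave log2 ratios of medians of 4.18 in KO and 5.10 in WT. CD150 lay above the 90th percentile of the other cells in 23 of 29 KO members and in 14 of 21 WT members.

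CD48 had medians of 73.2% in KO members and 73.0% in WT members, against 75.8% in the other KO cells and 73.2% in the other WT cells. With limits of 5% for CD150 and 50% for CD48, set with the values known, 21 of 29 KO members (72.4%, 52.8 to 87.3) and 13 of 21 WT members (61.9%, 38.4 to 81.9) were CD150+CD48+. Only 4.53% of the other KO cells and 4.22% of the other WT cells fell there. The CD150+CD48- corner, where stem cells are found, held 2 KO and 2 WT members. The CD150-CD48+ corner held 4 KO and 3 WT members, and the corner without either held 2 KO and 3 WT members.

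By share of tags, the members lay below CD150-high CD48-low cells on the 4 remaining tags. By median UMIs, CD34 (35 against 27 in KO, 17 against 13 in WT) and CD117 (847 against 738.5, 513 against 577) did not separate them. CD150-high CD48-high cells outside the rule lay close to the members. Their KO and WT medians were 0.476% and 0.426% for CD34 and 2.00% and 2.05% for Sca1. For CD117 they were 13.4% and 16.6%, and for CD201 0.549% and 0.192%. CD34 had a median of 0.510% in KO members and 0.402% in WT members, against 1.79% and 1.5% in the other KO and WT cells. Sca1 was 1.82% in KO and 1.42% in WT members, against 2.95% and 3.97% in the other KO and WT cells. CD117 (c-Kit) was 14.0% in KO and 12.7% in WT members, against 15.5% and 18.2%. CD201 (EPCR, a stem cell mark) was 0.556% in KO and 0.244% in WT members, near the other cells' 0.595% and 0.240%. The members' CD201 lay far below the 5.48% and 2.95% of CD150-high CD48-low cells. Slamf1, the gene of CD150, was also high, at 32.9 CPM in KO and 21.1 CPM in WT members against 6.68 and 5.79 CPM in the other KO and WT cells.

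**Figure D2:**
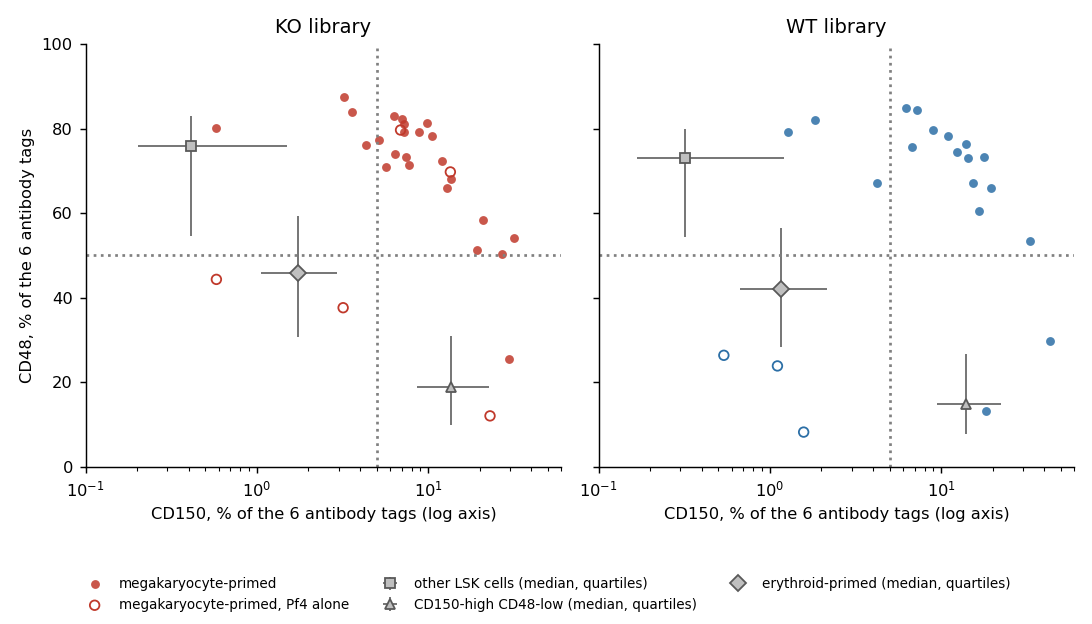
CD150 against CD48 as a percent of the 6 antibody tags, KO in the left panel and WT in the right, 1 circle per member. Grey markers with bars give the median and quartiles of the other LSK cells, the CD150-high CD48-low cells and the erythroid-primed cells, and dotted lines mark 5% and 50%. Most members, 21 of 29 in KO and 13 of 21 in WT, lie right of 5% and above 50%.

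Members with Pf4 as the only rule gene looked different on these tags. All 3 such WT cells were CD150-CD48-, and of the 5 such KO cells 1 was CD150+CD48- and 2 were CD150-CD48-, with 2 in the CD150+CD48+ corner. Their Sca1 tag had medians of 10.1% in KO and 28% in WT, against 1.82% and 1.42% over all KO and WT members. Their listed stem cell genes summed to 1520 CPM in KO and 1571 CPM in WT, against 400.4 and 466.4 CPM over all KO and WT members. Counts are small, and the values are a description.

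The members differed from the other LSK cells across much of the platelet gene set, in both libraries alike. Among the 5370 genes with at least 20 CPM on average over the members of both libraries, 317 (5.9%) were at least 1.5-fold higher in members in both libraries and 113 (2.1%) at least 1.5-fold lower. Of the 64 listed platelet and megakaryocyte genes outside the rule that reached 20 CPM, 43 were higher in both libraries by that measure and 1 was lower. Their median log2 ratio of members over other cells was 1.26 in KO and 1.31 in WT, beside 0.14 in KO and 0.09 in WT over all 5370 genes. The minimum of 20 CPM admits genes through their level in members, so the counts describe the genes that reached it. At any level, 72 of the 99 listed genes lay above the other cells in both libraries and 12 lay below in both.

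Adhesion receptors, with which platelets hold to a vessel wall, were mostly higher in members. Of 16 listed genes 8 reached 20 CPM, and 6 of these were higher in members in both libraries. Gp1bb and Gp9 are 2 chains of the receptor that catches von Willebrand factor, and Gp5 is the chain associated with it. Gp1bb had 47 UMIs in 17 KO members and 29 UMIs in 10 WT members, which is 33.6 and 43.6 CPM against 0.618 and 0.440 CPM in the other KO and WT cells. Gp5 had 30.8 CPM in KO and 34.6 CPM in WT members against 1.56 and 1.3 CPM, with log2 ratios of 4.30 in KO and 4.73 in WT. Gp9 was detected in 26 of 29 KO and 19 of 21 WT members, but also in 35.1% and 33.7% of the other KO and WT cells and in 14.5% and 13.9% of erythroid-primed KO and WT cells. CD150-high CD48-high cells outside the rule were close to the members, with Gp9 in 80.6% in KO and 71.8% in WT. Its log2 ratios were 2.95 in KO and 2.24 in WT. Cd9 (a tetraspanin of the platelet membrane) had 197 CPM in KO and 169 CPM in WT members against 34.7 and 39.0 CPM.

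Gp1ba, which carries the binding site for von Willebrand factor, had 16 UMIs in 11 KO members and 1 UMI in the WT members, a log2 ratio of KO over WT of 2.93 (0.24 to 8.32). Several other late platelet genes were at or near 0. Gp6 (the collagen receptor) had no UMI in either library. Selp (P-selectin) had 3 UMIs in KO and 2 in WT members. Tubb1, the tubulin of the platelet ring, had 2 UMIs in KO and 1 in WT, and Ppbp, a late alpha granule chemokine, had none.

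Among alpha granule genes, 5 of the 6 that reached 20 CPM were higher in members in both libraries. Thbs1 (thrombospondin 1, an adhesive granule protein; chromosome 2, 118111876 to 118127133) had 62 UMIs in 11 KO members and 35 UMIs in 8 WT members. This came to 44.3 CPM in KO and 52.7 CPM in WT members, against 0.444 and 0.107 CPM in the other KO and WT cells, with log2 ratios of 6.64 in KO and 8.95 in WT. Vwf (von Willebrand factor) was detected in 19 of 29 KO and 12 of 21 WT members, against 4.68% and 4.15% of the other KO and WT cells, and 7.73% and 6.11% of the deeper erythroid-primed KO and WT cells. In CD150-high CD48-low cells outside the rule Vwf was detected in 28.3% in KO and 23.2% in WT. Vwf reached 53.6 CPM in KO and 45.1 CPM in WT members, against 1.64 and 2.21 CPM. Clu (clusterin) had log2 ratios of 4.29 in KO and 4.63 in WT, and Tgfb1, a growth factor stored in alpha granules, 1.02 and 0.87. Srgn (serglycin, the granule proteoglycan shared with other blood lineages) differed little, with 733 CPM in KO and 599 CPM in WT members against 606 and 570 CPM.

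Signalling receptors and relays gave the largest number of high genes, 13 of 18. F2rl2 (PAR3, a thrombin receptor of mouse platelets) had 84 UMIs in KO and 49 UMIs in WT members, or 60.1 and 73.7 CPM against 0.908 and 0.944 CPM in the other KO and WT cells. F2r (PAR1, another thrombin receptor) had 187 CPM in KO and 159 CPM in WT members against 20.3 and 16.8 CPM. P2ry1, an ADP receptor, had log2 ratios of 2.87 in KO and 3.18 in WT, and Gnaz, a G protein alpha subunit of platelets, 2.95 and 3.13. Rap1b, the small GTPase that switches platelet integrins on, had 870 CPM in KO and 716 CPM in WT members, against 117 and 109 CPM. Plek (pleckstrin, a main kinase substrate of platelets) had 246 CPM in KO and 162 CPM in WT members against 30.5 and 31.3 CPM.

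Dense granule and eicosanoid genes were higher in 6 of 8, cytoskeleton genes in 4 of 8 and transcription factors in 9 of 16, with 1 factor lower. Rab27b, which moves granules to the membrane, had log2 ratios of 3.79 in KO and 3.58 in WT. Tbxas1, the thromboxane synthase, had 2.26 and 1.61. Tuba8, an alpha tubulin, had 75.1 CPM in KO and 33.1 CPM in WT members against 2.61 and 1.93 CPM, and Tmsb4x (thymosin beta 4, which binds actin monomers) 4302 and 3919 CPM against 1923 and 2032 CPM. Tmsb4x thus made up most of the cytoskeleton list's 5170 CPM in KO and 4602 CPM in WT members. Of the factors, Fli1 had log2 ratios of 1.75 in KO and 1.45 in WT, Gata2 1.37 and 1.35, and Gata1 1.11 and 1.92. Lyl1, a factor of early progenitors, was lower, with log2 ratios of -0.98 in KO and -1.10 in WT. Detection of Gata1 was not particular to the members. With cells thinned to equal depth, Gata1 was found in 31.0% of KO and 23.8% of WT members. The shares were 29.6% in KO and 23.3% in WT for CD150-high CD48-high cells outside the rule. Erythroid-primed cells lay higher, at 46.9% in KO and 46.7% in WT.

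The genes highest in members by the counting bound included several with no place on the lists. Kcnj5 (a G protein gated potassium channel) had 41 UMIs in KO and 13 in WT members with log2 ratios of 6.57 in KO and 6.43 in WT. Sardh (sarcosine dehydrogenase, a mitochondrial enzyme) had 69 and 23 UMIs with ratios of 6.56 and 5.77. Ehd3 (membrane recycling) had 4.83 in KO and 5.36 in WT, and Rbpms2 (an RNA-binding protein) 4.92 and 5.24. Cdc42ep5 (an effector of Cdc42) had 4.88 in KO and 5.36 in WT, and Mrvi1 (a partner of the inositol trisphosphate receptor that restrains platelet activation) 4.96 and 4.61. F10 (coagulation factor X) had 51 UMIs in KO and 32 in WT members with ratios of 4.32 and 4.81. With thinned cells the ratios of the 12 highest genes kept their direction in both libraries, and the one that moved most was that of Cdc42ep5 in WT, to 3.08.

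**Figure D3:**
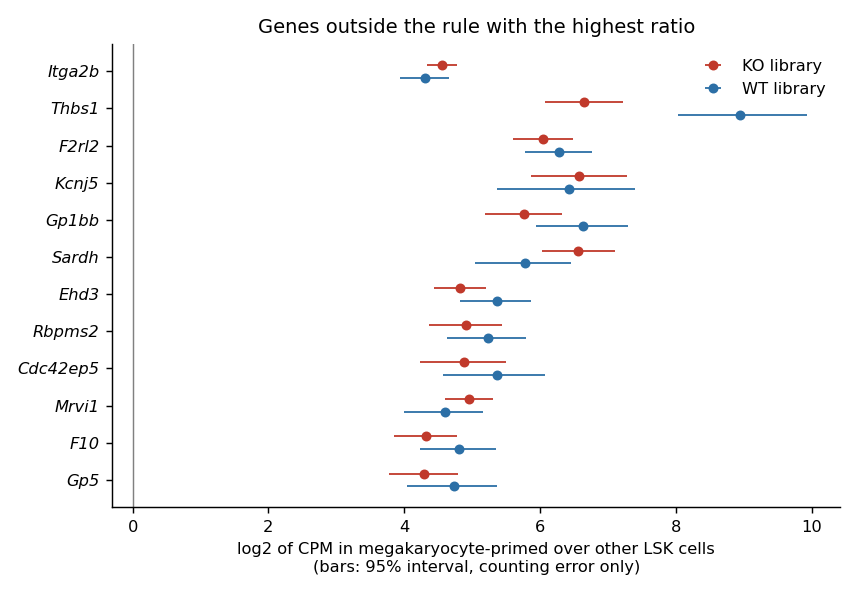
Log2 ratio of members over the other LSK cells for Itga2b and the 11 other genes that ranked highest outside the rule, KO above WT for each gene, with bars for the 95% counting interval. Ratios lie between 4.30 and 6.64 in KO and between 4.30 and 8.95 in WT.

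Most lists of other lineages were lower in the members than in the other LSK cells, and the macrophage and endothelial lists were not. The other LSK cells are all cells outside the rule, erythroid-primed cells among them. CD150-high CD48-high cells outside the rule also lay below them for lymphoid, granulocyte-monocyte and mast, basophil and eosinophil genes. Low sums of these lists were therefore not particular to the members. The erythroid sum of that group was lower too. Erythroid-primed cells had been taken out of the group, so its erythroid sum cannot be read the same way. The genes lowest by the counting bound were Mt2 (a metallothionein), Cma1 and Tpsb2 (mast cell proteases), S100a8 and S100a9 (neutrophil proteins) and Irf8 (a factor of monocytes and dendritic cells). Mt2 had 12 UMIs in KO members and none in WT members, against 500.1 and 229 CPM in the other KO and WT cells. Tpsb2 had 3 UMIs in KO and 2 in WT members, against 144 and 130 CPM, and Irf8 had 5 and 1, against 40.8 and 41.7 CPM. Klf1 (the erythroid master factor) had 5 UMIs in KO and 10 in WT members, and no member met the erythroid-primed rule. Of the defining dendritic markers H2-Aa had no UMI in the members, and the macrophage list summed to 10.7 CPM in KO and 16.6 CPM in WT members, against 4.95 and 4.31 CPM in the other KO and WT cells. Lymphoid genes summed to 72.2 CPM in KO and 171 CPM in WT members against 398 and 470.0 CPM, and erythroid genes to 554 and 564 CPM against 994 and 673 CPM. In KO and WT, CD150-high CD48-high cells outside the rule had 122 and 145 CPM for lymphoid genes and 840 and 663 CPM for erythroid genes. Members lay below that group in both libraries for erythroid genes, but only in KO for lymphoid genes. Endothelial genes, some of which megakaryocytes share, summed to 67.2 CPM in KO and 61.7 CPM in WT members against 43.6 and 51.2 CPM.

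Granulocyte transcripts were lower in sum than in the other LSK cells but present in most members. At least 2 UMIs of Elane, Prtn3 and Ctsg together were found in 21 of 29 KO members (72.4%) and 13 of 21 WT members (61.9%), against 77.8% and 80.2% of the other KO and WT cells. The granulocyte-monocyte list summed to 1014 CPM in KO and 623 CPM in WT members, against 1496 and 1273 CPM. CD150-high CD48-high cells outside the rule had 710 CPM in KO and 712 CPM in WT, below the KO members and above the WT members. Their mast, basophil and eosinophil list summed to 18.01 CPM in KO and 35.1 CPM in WT, against 163 CPM in KO members and 7.52 CPM in WT members. In KO the deepest member, with 147812 UMIs, held 120 of 148 Mpo UMIs, all 105 of Ctsg, all 37 of Mcpt8 and all 45 of Prss34 (the last 2 are basophil proteases). Without that cell the KO sum was 705 CPM for the granulocyte-monocyte list and 36.8 CPM for the mast, basophil and eosinophil list, against 163 CPM with it. Whether that droplet held 2 cells was not tested.

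Stem cell genes were lower in the members than in the other LSK cells, and far lower than in CD150-high CD48-low cells. The 16 listed genes summed to 400.4 CPM in KO and 466.4 CPM in WT members, against 826 and 899 CPM in the other KO and WT cells, and 2281 and 1978 CPM in CD150-high CD48-low KO and WT cells. Of 9 that reached 20 CPM, 4 were at least 1.5-fold lower in both libraries and 2 were higher, Slamf1 and the imprinted gene Ndn. Over all genes 2.1% were lower and 5.9% higher. Hlf, a factor of stem cells, was detected in 19 of 29 KO members (65.5%) and 8 of 21 WT members (38.1%). In CD150-high CD48-low cells it was detected in 95.4% in KO and 97.1% in WT. The shares were 69.0% and 74.3% in the other KO and WT cells. In CD150-high CD48-high cells outside the rule they were 60.2% and 62.6%. The 16 listed genes summed to 724 and 663 CPM in those KO and WT cells, and to 324 and 278 CPM in erythroid-primed cells. A low sum of this list was thus not particular to the members. Cd34 had log2 ratios of -2.07 in KO and -1.66 in WT, and Kit -1.01 and -1.13. Ly6a, the gene of Sca1, had no UMI in KO members and 7 UMIs in 3 WT members.

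Summed over the lists, cells with more of the rule genes held more of the other platelet genes. Tmsb4x gave a large part of that sum over all members. Members were split at 4 and 10 rule UMIs per 10000, limits set with the values known, into 15, 7 and 7 KO cells and 11, 3 and 7 WT cells. The 99 listed genes summed to 10352, 14211 and 17451 CPM in KO and to 8335, 12097 and 14126 CPM in WT from the lowest to the highest band. The other LSK cells stood at 5934 CPM in KO and 5946 CPM in WT, and erythroid-primed cells at 2160 and 2094 CPM. Cells outside the rule with the members' commonest surface phenotype, CD150-high and CD48-high, stood between at 7764 CPM in KO and 7331 CPM in WT, and CD150-high CD48-low cells at 7679 and 6938 CPM. Pf4-alone members summed to 8008 CPM in KO and 5974 CPM in WT.

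The lists did not move alike along this order. Adhesion receptors summed to 535, 787 and 862 CPM in KO and 484, 631 and 638 CPM in WT. Cytoskeleton genes summed to 3212, 5003 and 7603 CPM in KO and 2742, 3912 and 6154 CPM in WT, so that the sum still differed between the upper bands. Tmsb4x made up most of the cytoskeleton sum over all members, and the rest of that list was not summed by band. Signalling receptors and relays, a list without Tmsb4x, summed to 2188, 3396 and 3994 CPM in KO and 1778.5, 3182 and 3237 CPM in WT. Rap1b had 448, 973 and 1319 CPM in KO and 292, 712 and 1017 CPM in WT, and Plek 117, 297 and 373 CPM in KO and 56.7, 135 and 247 CPM in WT. Transcription factors showed no steady climb, at 2800, 3117 and 2748 CPM in KO and 1718, 2641 and 2374 CPM in WT. Stem cell genes were lower in each higher band in KO, at 653, 261 and 175 CPM. In WT they were 632, 126 and 466 CPM, and the highest band came to 272 CPM without its deepest cell, which held 38 of the 67 Hlf UMIs of the WT members.

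**Figure D4:**
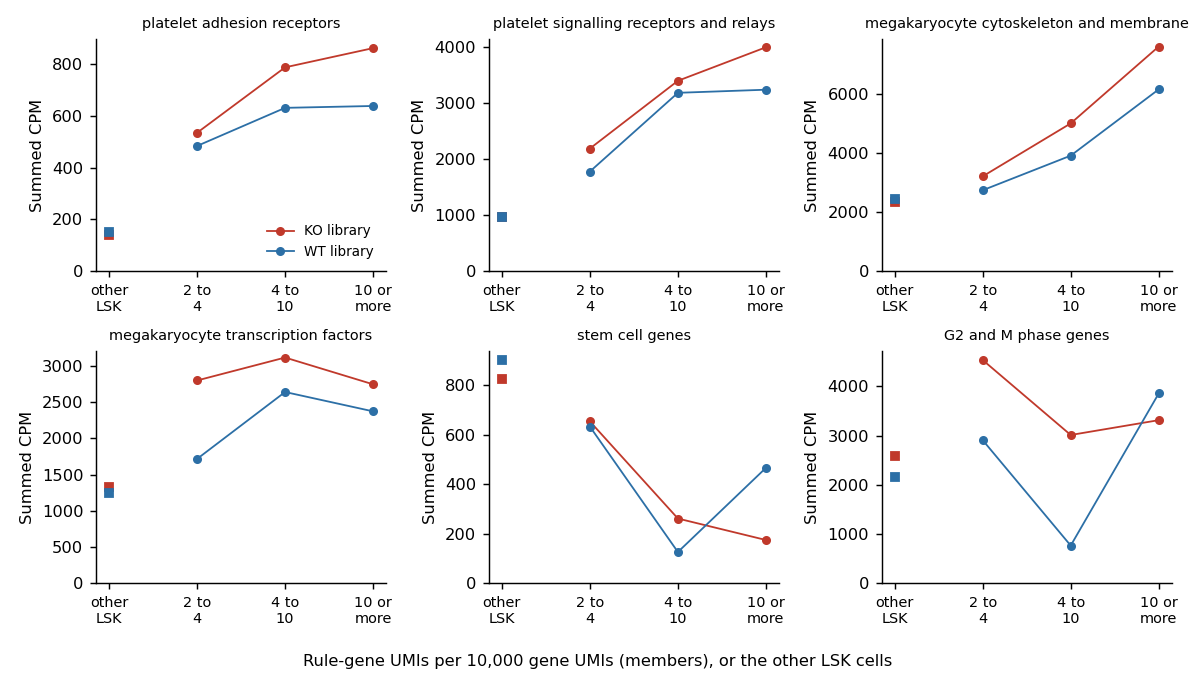
Summed CPM of 6 gene lists without the rule genes, KO in red and WT in blue. Squares show the other LSK cells, and joined points show members with 2 to 4, 4 to 10 and at least 10 rule UMIs per 10000. Cytoskeleton genes reach 7603 CPM in KO and 6154 CPM in WT, transcription factors stay between 1718 and 3117 CPM, and stem cell genes lie below the other cells in every band.

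Genes of G2 and M phase summed to 3787 CPM in KO and 3013 CPM in WT members, against 2597 and 2161 CPM in the other KO and WT cells. CD150-high CD48-high cells outside the rule stood between, at 3310.5 CPM in KO and 2468.5 CPM in WT. Of 26 genes 4 were higher in both libraries and 1 lower, beside 5.9% higher and 2.1% lower over all genes. Per cell the sums ran from 0 to 10485 CPM with a median of 1717 CPM in KO members, and from 0 to 9683 CPM with a median of 774 CPM in WT members. Cells without these transcripts and cells rich in them occurred in both libraries. S phase genes had median log2 ratios of members over other cells of -0.05 in KO and 0.24 in WT, with 1 of 24 higher in both libraries and none lower. Set against the same 5.9% and 2.1%, that count shows little about the S phase list.

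The members made up a larger share of the KO library. They were 29 of 2742 KO cells (1.06%, Clopper-Pearson interval 0.709 to 1.52) and 21 of 5352 WT cells (0.392%, 0.243 to 0.599), a difference of 0.665 percentage points (0.284 to 1.14, Newcombe). Under the other limits on depth, mitochondrial share and rule genes the difference ran from 0.324 to 0.844 points, higher in KO each time. In 1 draw that thinned every cell to 8000 UMIs before the rule, it was 0.116 points (-0.211 to 0.518), with 17 KO and 27 WT cells. The expected numbers over all possible thinnings were 21.5 KO cells (0.784%) and 31.5 WT cells (0.588%). Of these, 16.1 KO and 12.8 WT cells were members at full depth, and 5.37 KO and 18.6 WT cells were not. The expected difference was 0.196 points. In the 1 draw the interval included 0, and a larger KO share was not detectable there. Thinning also brought in cells that were not members, so it cannot decide whether the members' share differs at equal depth.

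By band, members at 2 to 4 per 10000 were 0.547% of KO and 0.206% of WT cells, a difference of 0.342 points (0.072 to 0.707). Members at 10 or more, the 7 cells of each library richest in the rule genes, were 0.255% of KO and 0.131% of WT cells, a difference of 0.125 points (-0.067 to 0.404). Members with a second rule gene were 0.875% of KO and 0.336% of WT cells.

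Bclaf1, the targeted gene (chromosome 10, 20310512 to 20342644), was lower in KO members. It ranged from 0 to 262 CPM per KO member with a median of 62.1 CPM, and from 0 to 490.2 CPM per WT member with a median of 213 CPM. Of the 29 KO members 1 lay above the WT median, though the ranges overlapped. The sums were 105 UMIs (75.1 CPM) in KO and 138 UMIs (208 CPM) in WT members, a log2 ratio of -1.47 (-1.85 to -1.09). The other LSK cells gave 75.9 CPM in KO and 218 CPM in WT, a log2 ratio of -1.52, so members and other cells differed by less than the counting interval. The labels do not name the deleted part of the gene, and 3′ tags outside it check nothing about the deletion.

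Within members, 683 of 5370 genes (12.7%) were at least 1.5-fold higher in KO and 210 (3.91%) at least 1.5-fold lower. Over the same genes in the other LSK cells, which are summed over far more UMIs, 60 (1.12%) were higher and 8 (0.149%) lower. The 2 pairs of shares rest on very different depths and are not set against each other. The median log2 ratio of KO over WT was 0.10 in members and 0.07 in the other cells.

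The platelet genes were close between the genotypes. Of the 64 listed genes outside the rule that reached 20 CPM, 7 were at least 1.5-fold higher in KO members and 1 was lower, which is 10.9% and 1.56% beside 12.7% and 3.91% of all genes. Their median log2 ratio was 0.23, against 0.05 in the other cells. The 99 genes together gave 13709 CPM in KO and 11789 CPM in WT members, a log2 ratio of 0.22 (0.18 to 0.26). No adhesion receptor and no alpha granule gene of those reaching 20 CPM passed 1.5-fold in either direction. Itga2b had a log2 ratio of 0.56 (0.17 to 0.97), beside 0.32 in the other cells, and 4 KO members lay above the highest WT member.

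The 7 higher genes were spread over 4 lists. Tuba8 had 105 UMIs in 23 KO members and 22 UMIs in 11 WT members (log2 ratio 1.18, 0.51 to 1.92), and Bin2 (a membrane-bending protein) 227 and 56 UMIs (0.95, 0.52 to 1.39). Ptgs1, the cyclooxygenase of platelets, had 92 and 21 UMIs (1.06, 0.36 to 1.82), and thinned cells gave 0.19. Plek had a log2 ratio of 0.60, Syk (a kinase of the collagen receptor pathway) 0.63, Runx1 0.70 and Nfe2 0.66. Mafg, a small Maf partner of Nfe2, had -0.70 (-1.46 to 0.08).

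Among lists with at least 3 genes that reached 20 CPM, the largest median difference between KO and WT members lay in immediate early genes, which are switched on within minutes of a stimulus. Of 10 listed genes that reached 20 CPM, 9 were at least 1.5-fold higher in KO members, beside 12.7% of all genes. Their median log2 ratio was 1.66. In the other LSK cells 9 of the same 10 were higher, beside 1.12% of all genes, with a median of 0.90. The 19 listed genes summed to 1328 CPM in KO and 394 CPM in WT members, a log2 ratio of 1.75 (1.57 to 1.95). Leaving out any 1 member moved that ratio between 1.58 and 1.86. In the other cells the sums were 1701 CPM in KO and 911 CPM in WT. The difference between members and other cells was not tested.

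Per cell the list ran from 70.0 to 6807 CPM with a median of 804 CPM in KO members, and from 77.6 to 1681 CPM with a median of 341 CPM in WT members. The groups overlapped, but 8 KO members lay above the highest WT member and 26 of 29 above the WT median. Jun (an AP-1 subunit; chromosome 4, 95049036 to 95052222) had 0 to 114 UMIs per KO member with a median of 13, and 0 to 8 per WT member with a median of 2. Jun came to 448 CPM in KO and 73.7 CPM in WT members, a log2 ratio of 2.60 (2.18 to 3.05), and in the other LSK cells to 556 and 273 CPM, a ratio of 1.03. Fos, the partner of Jun (chromosome 12, 85473890 to 85477274), had 110 UMIs in 18 KO members and 3 UMIs in 2 WT members, a log2 ratio of 4.12 (2.54 to 6.42). In the other cells Fos had 135 CPM in KO and 37.1 CPM in WT. In both libraries the members thus stood below the other LSK cells for both genes.

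Other members of the list moved the same way. Junb had a log2 ratio of 1.37, Btg2 (an antiproliferative gene) 1.3, Ier2 1.15 and Jund 0.97. Klf6 had 2.01, Egr1 1.99 and Zfp36 (which destabilises short-lived messages) 1.96. Ier5 was the exception at -0.15. Jun was higher in KO in each band of rule genes, with 674, 319 and 249 CPM in KO and 140, 90.1 and 21.6 CPM in WT. The list's median depended on which cells entered: it was 1.13 without Pf4-alone members, 1.14 with thinned cells, and 0.78 in the 8 KO and 8 WT members without transcripts of another lineage.

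**Figure D5:**
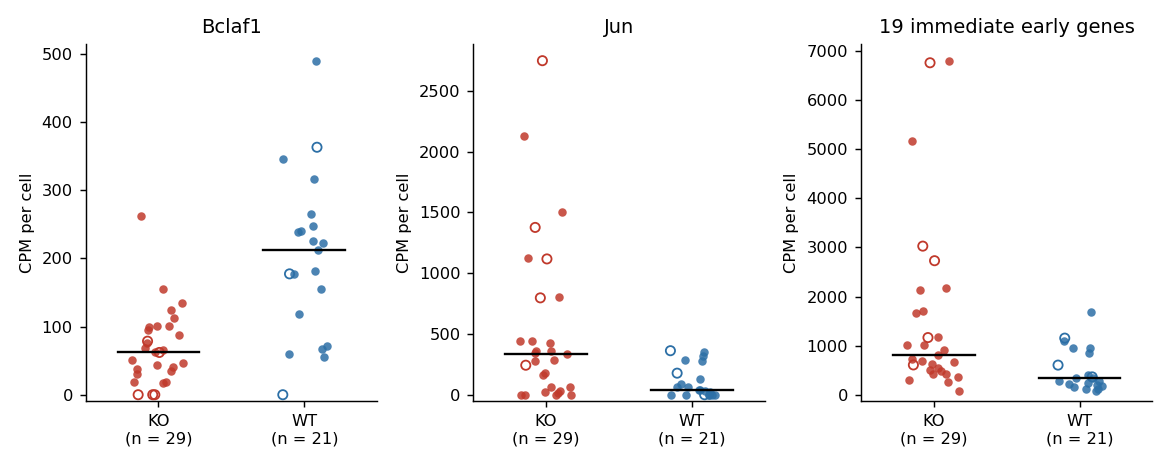
Per-cell CPM of Bclaf1, Jun and the 19 immediate early genes in KO members (left in each panel) and WT members, with medians as black lines. Medians are 62.1 and 213 CPM for Bclaf1, 338 and 38.0 CPM for Jun and 804 and 341 CPM for the list, in KO and WT members in that order.

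Stress genes of other kinds gave a mixed picture. Hspa1a (an inducible heat shock chaperone) had 176 UMIs in 13 KO members and 10 UMIs in 4 WT members, a log2 ratio of 3.06 (2.15 to 4.15), beside 1.39 in the other cells. Hspa1b, its near-identical copy, had 2.07, and reads of the pair may be split between them, so each value is uncertain. Over the heat shock list 4 of 12 (33.3%) were higher and none lower, with a median log2 ratio of 0.41, beside 12.7% higher and 3.91% lower over all genes. Ppp1r15a (GADD34, which restarts translation after stress) had 116 UMIs in 25 KO members and 7 UMIs in 6 WT members, a ratio of 2.98 (1.89 to 4.32), beside 0.85 in the other cells. It was 1.43 in members without transcripts of another lineage. Over the ATF4 list 3 of 8 were higher (median 0.54), over the p53 targets 2 of 7 (median 0.22), and over the NF-kB list 1 of 3 (median 0.07), with none lower in any of them. Set against the same 12.7% and 3.91%, counts in lists this short, with none lower, show little about the lists.

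No interferon response gene of the 9 that reached 20 CPM passed 1.5-fold in either direction. Their median log2 ratio was -0.41, and -0.30 in the other cells. Ifitm3 had 355 CPM in KO and 516 CPM in WT members. Isg15 (an interferon-induced modifier protein) averaged under 20 CPM and had 4 UMIs in KO and 17 UMIs in WT members, a log2 ratio of -3.16 that was -0.57 in members without transcripts of another lineage. Splicing factors were higher in 4 of 30 (13.3%, near the 12.7% of all genes) and lower in none, with a median of 0.26, and 0.19 in the other cells. Tra2a, one of the 4, had 0.85. G2 and M phase genes were higher in 8 of 26 (30.8%), among them Bub1b (a spindle checkpoint kinase) at 1.32, with a median of 0.27. In the other cells, summed over far more UMIs, their median was 0.30 and none passed 1.5-fold. S phase genes were higher in none of 24 and lower in 1 (4.17%, near the 3.91% of all genes; median -0.09), and cyclins and inhibitors in none of 8.

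That S phase gene was Ung (uracil DNA glycosylase), with 39 UMIs in 14 KO members and 54 UMIs in 12 WT members, a log2 ratio of -1.54 (-2.18 to -0.92), beside -0.38 in the other cells. Hmga2, a chromatin protein of fetal stem cells, had 43 UMIs in 18 KO members and 55 UMIs in 14 WT members, a ratio of -1.43 (-2.04 to -0.83), beside -0.06 in the other cells. Ung came to -0.71 and Hmga2 to -0.38 in members without transcripts of another lineage. Ramp1, a receptor partner for calcitonin gene-related peptide, had 64 UMIs in 21 KO members and 75 UMIs in 19 WT members, a ratio of -1.3, beside -0.41. Hmga2 and Ramp1 were also lower in members than in the other cells of the same library, with log2 ratios of -2.86 in KO and -1.49 in WT for Hmga2, and -2.26 and -1.36 for Ramp1.

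Several other extremes rested on single cells. All 20 Id3 UMIs of WT members lay in 1 cell, against 1 UMI in KO members, and of 16 Tulp3 UMIs in WT members 87.5% lay in 1 cell, against 7 UMIs in KO members. Wfdc17 had 3 UMIs in KO and 23 UMIs in WT members, of which 65.2% were in 1 cell. Among genes ranked highest in KO, the granulocyte and basophil genes Ctsg, Prss34, Cxcl2 and Mcpt8 came from 1 KO member alone, and 93.9% of Hdc UMIs and 58.1% of Cpa3 UMIs came from 1 KO cell. The 3 remaining low genes were spread over more cells. Flt3, a receptor of lymphoid-primed progenitors, had 9 UMIs in 5 KO members and 19 UMIs in 5 WT members. Tmsb15b2 had 5 and 14 UMIs, and 2700038G22Rik 13 and 23 UMIs, with at most 34.8% of the WT UMIs in 1 cell for these last 2.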

How the data were processed

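Both libraries were 3′ CITE-seq of sorted LSK cells, and the matrices, as deposited, were unnormalised UMI counts of 32285 genes and 6 antibody tags over 2456731 KO and 2395014 WT barcodes. Per the file headers the authors used Cell Ranger. The submitters' processing notes give its version as 4.0.6 and the build as mm10, and name Seurat and DESeq without their roles. Barcodes with at least 8000 gene UMIs and at most 10% mitochondrial UMIs were taken as cells, which held 104951740 gene UMIs in KO and 141475677 in WT. No free RNA was removed and no doublets were called. UMIs were summed over members per library and scaled to 1000000 gene UMIs (CPM). A ratio has the interval that an exact binomial split of its UMIs gives, a share the Clopper-Pearson interval and a difference of shares the Newcombe interval. The ratios and their intervals were tested on simulated counts that held no spread between cells. A gene counted as higher or lower at 1.5-fold among genes with at least 20 CPM on average over both libraries' members. UMIs were counted at the 3′ end, and levels are not compared between genes. With 1 library per genotype no test between samples was possible.

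The members, the 26 gene lists, comparison cells and limits were chosen with earlier results of these data known. Named genes were Bclaf1, the rule genes and Itga2b, the 10 highest and 10 lowest of KO over WT, the 12 highest and 6 lowest of members over other cells by counting bound (sex-linked, haemoglobin and mitochondrial genes left out), and of each list the 4 highest and the 2 farthest from equality; not every gene so chosen is reported here. Gp1ba, Gp6, Selp, Tubb1, Ppbp, Vwf, Clu, F2r, P2ry1, Gnaz, Tbxas1, Fli1, Gata1, Gata2, Nfe2, Lyl1, Slamf1, Ndn, Ly6a, Klf1, Junb, Klf6, Egr1, Zfp36 and Ier5 were named after their values were seen. Other LSK cells are all cells outside the rule. Erythroid-primed cells held at least 2 Klf1 UMIs and at least 4 UMIs of Klf1, Car1, Ermap and Aqp1 per 10000. Cells that met this erythroid rule were left out of the CD150-high CD48-high and CD150-high CD48-low groups. Positions and promoters came from RefSeq on GRCm38.p6, the assembly of mm10. Python 3.11.15, numpy 2.4.6, scipy 1.17.1, pandas 2.3.3 and matplotlib 3.10.9 were used. Alternatives tried were thinning, other limits on cells and members, other scaling, subtraction of the free RNA profile of barcodes with 10 to 100 UMIs, and leaving out the deepest, Pf4-alone or other-lineage members.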

Additional observations from a re-analysis of the deposited data

How the results depend on the processing

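No paired analysis was possible because each genotype had 1 library, and leaving out a replicate was not possible either. The share of members differed by 0.116 points with thinned cells, the only one of its 9 alternatives that moved it beyond the counting interval of the reported difference. Counts of genes past 1.5-fold depended on the depth and on the cells that entered. For KO over WT the lower genes numbered 343 with median-of-ratios scaling, which shifts all ratios by 0.10, and 375 with at least 4 rule UMIs per 10000. Higher and lower genes numbered 1835 and 783 at a minimum of 5 CPM, 196 and 56 at 50 CPM, 1242 and 777 with thinned cells, and 1045 and 442 in the 8 KO and 8 WT members without another lineage. For members over other cells the genes lower in both libraries numbered 213 with thinned cells and 265 without another lineage. The cause was not tested. The other alternatives kept these counts within 1.5 times, and all 8 alternatives for the CD150 tag kept its log2 ratio.

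Single genes reversed for KO over WT in 17 of 1461 recomputed values. With thinned cells these were Srgn (-0.17), Rgs18 (-0.33) and Hnrnpu (-0.032). With median-of-ratios scaling Hsp90ab1 was -0.023, and with at least 4 rule UMIs it was -0.019 and Hnrnpu -0.0094. Without the top 5% of cells by UMIs, and without the deepest member, Tulp3 was 0.20, Hlf 0.15 and Mpo -0.12. Without another lineage Srgn was -0.19, Hlf 0.11, Hoxa9 1.60, Mpo -1.15 and Ltb 1.02. Of list medians 19 of 168 moved and none reversed. With 1398548 KO and 664697 WT UMIs in members, a gene at 20 CPM rests on few UMIs per library, and that sets the width of the intervals.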
